A study of Mus musculus with 36 samples.

Results

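The genes described here encode the main collagens of loose connective tissue and the proteins that fix them in place. They are the fibrillar collagen chains *Col1a1*, *Col1a2*, *Col3a1*, *Col5a1* and *Col5a2*, the type VI collagen chains *Col6a1*, *Col6a2* and *Col6a3*, the cross-linking enzyme *Lox* and fibronectin (*Fn1*). They were taken as a fixed list by gene symbol in GENCODE M21, and all 10 were found among the 55536 genes of the count tables and passed the filter on low counts, as did 16723 genes in all. RNA was sequenced from 36 cultures of brown pre-adipocyte lines of mouse. In 2 clones, numbered 48 and 66, *Rxra* had been disrupted with Cas9 in a clonal wild-type line, and a retrovirus with hygromycin selection then put back RXRα, either unaltered (*Rxra*WT) or carrying alanine in place of serine 22 (*Rxra*SA). Every line was collected at confluence (day 0), after 2 days and after 6 days of differentiation, 3 replicates at a time. All cells received insulin and T3, and from day 0 to day 2 also dexamethasone, isobutylmethylxanthine and indomethacin. Each clone is 1 cell line and was sequenced in its own library pool, so that clone and pool cannot be told apart. The labels call the 3 replicates technical and the study's methods call them independent, and all p-values measure only the spread between these cultures.

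Fibrillar collagens are made as procollagens, trimmed outside the cell and assembled into fibrils, in which collagen V sits inside fibrils of collagens I and III. Collagen VI forms fine beaded filaments around cells and is abundant in adipose tissue. Fibronectin is laid down early by fibroblasts and binds integrins, and LOX oxidises lysines so that collagen and elastin become cross-linked. Pre-adipocytes are fibroblast-like cells that lay down a fibrillar matrix, and adipocytes are known to surround themselves with a basement membrane and collagen VI.

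In GRCm38 the genes lie on 6 chromosomes. *Col1a1* (chr11:94936224-94953042) and *Col1a2* (chr6:4504814-4541544) are apart, as is *Col5a1* (chr2:27886425-28039514), all on the + strand. *Col3a1* (chr1:45311538-45349706, + strand) and *Col5a2* (chr1:45374321-45503282, − strand) are neighbours, and so are *Col6a2* (chr10:76595762-76623630) and *Col6a1* (chr10:76708792-76726168), both on the − strand. *Fn1* (chr1:71585520-71653200) and *Col6a3* (chr1:90765923-90843971) lie on the − strand of chromosome 1, and *Lox* is on chromosome 18.

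Total counts lay between 11351078 and 24349263 per library (median 18338726), and the 10 genes held between 0.309% and 1.29% of them. Levels are given as CPM, which are counts relative to the library total after scaling by edgeR's TMM factors, and fold changes as log2 values from edgeR's quasi-likelihood fit over all genes, with SE and Benjamini-Hochberg adjusted p. The summed level of 8 adipocyte markers rose from 474–1336 CPM at day 0 to 9727–15110 CPM at day 6, and that of 6 fibroblast and pre-adipocyte markers fell from 255–465 to 42.0–168 CPM. The sum of 4 smooth muscle and myofibroblast markers went from 128–438 CPM at day 0, nearly all of it *Acta2*, to 3.08–6.50 CPM at day 2 and 18.4–47.0 CPM at day 6. These markers did not share 1 course. *Acta2* had medians of 289, 1.35 and 3.13 CPM at days 0, 2 and 6, whereas *Myh11* rose through 1.34, 2.34 and 21.7 CPM. *Tagln* fell (1.37, 0.458 and 0.372 CPM) and *Cnn1* reached at most 1.53 CPM. Their part in the levels of collagens I and III and *Lox* was not tested. Of the fibroblast markers, *Dlk1* and *Thy1* were at or near 0 throughout. The brown markers *Ucp1*, *Dio2* and *Prdm16* were also near 0 on every day (*Ucp1* at most 5 counts per library), while *Ppargc1a* and, at day 6, *Cox7a1* were measured. The 4 skeletal muscle markers summed to at most 0.227 CPM, the 4 endothelial markers to at most 0.994 CPM (mostly *Pecam1*, up to 15 counts) and the 4 immune markers to at most 4.20 CPM at day 0 and 0.451 CPM later (nearly all *Lyz2*, up to 88 counts, while *Ptprc* had at most 1 count in any library and *Cd3e* none). *Rxra*, the re-expressed gene, lay between 92.5 and 711 CPM with no call between genotypes (log2 fold change between −0.07 and 0.03, SE 0.16). Counts per gene do not tell RNA of the reintroduced *Rxra* from any RNA of the disrupted gene. In cultured cells, as in any bulk sample, fewer cells of a type and less RNA per cell cannot be told apart.

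Replicate 3 stood apart within both clones. At day 6 both of its libraries lay above all 4 libraries of replicates 1 and 2 for 10 of 10 genes in clone 48 and for 8 of 10 in clone 66. At day 2 this held for 8 of 10 genes in each clone, and at day 0 for 2 in clone 48 and 0 in clone 66. The share of all genes tested with this pattern was not counted, so it is not known to be particular to these 10. The summed fibroblast markers went the same way. At day 6 they reached 101–110 CPM in replicate 3 of clone 48 against 42.0–51.0 in the other replicates, and 166–168 against 64.2–146 CPM in clone 66. Most of that sum was *Pdgfrb* (up to 148 CPM at day 6) and *Pdgfra* (up to 30.5 CPM), with *Ly6a* at most 3.83 CPM. The summed adipocyte markers of replicate 3 overlapped those of the other replicates at day 6. These sums were 12362–12986 against 12888–15110 CPM in clone 48 and 10286–10884 against 9727–12510 CPM in clone 66. The part of these markers in the levels of the matrix genes was not tested. Values without replicate 3 are given where they changed a call or moved a value by more than 1.5 times.

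Shown are stretches before the transcription start of 2 genes that fell by day 2, *Col1a2* and *Col3a1*, and of 2 that rose, *Col6a1* and *Col6a3*. They are RefSeq windows of GRCm38.p6 on the strand of the gene, 5′ to 3′, cut to bases before the start that lie in no exon of the gene in GENCODE M21. Capitals mark the motifs searched for, and matches were sought on both strands.
*Col1a2* (+ strand, chr6:4505370-4505492): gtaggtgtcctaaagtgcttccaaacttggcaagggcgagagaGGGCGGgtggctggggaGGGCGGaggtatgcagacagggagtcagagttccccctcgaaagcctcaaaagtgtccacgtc
*Col3a1* (+ strand, chr1:45311388-45311537): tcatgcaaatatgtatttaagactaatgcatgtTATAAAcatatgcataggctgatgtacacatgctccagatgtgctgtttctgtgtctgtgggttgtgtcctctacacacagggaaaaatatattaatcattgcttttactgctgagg
*Col6a1* (− strand, chr10:76726169-76726294): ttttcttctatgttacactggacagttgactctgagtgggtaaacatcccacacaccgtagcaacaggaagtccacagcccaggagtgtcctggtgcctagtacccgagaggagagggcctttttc
*Col6a3* (− strand, chr1:90843972-90844121): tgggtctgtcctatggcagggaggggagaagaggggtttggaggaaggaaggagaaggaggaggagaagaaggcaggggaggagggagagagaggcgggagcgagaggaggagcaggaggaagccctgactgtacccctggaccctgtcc
The last bases shown for *Col1a2* and *Col6a1* lie at −126 and −125 from the RefSeq start, because GENCODE places an exon after them, and the *Col1a2* stretch lies inside the GENCODE gene, after an earlier first exon. GGGCGG occurred in 35.7% and the TATA sequence TATAAA in 13.6% of 32851 windows of 300 bases, so a match is common. The other motifs searched were CCAAT (37.4% of windows), the AP-1 type sequence TGANTCA (7.81% of windows) and the nuclear receptor half-site AGGTCA (16.3% of windows). The *Col6a3* window held none of these 5. In the exonic parts that are not shown, the *Col1a2* window held CCAAT at 2 places and the *Col6a1* window held TGANTCA. Windows were at hand for *Col5a1* and *Col6a2* as well, and for these 6 of the 10 genes only.

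Divided by exon length, the levels of the genes changed order with time. At day 0 *Lox* was highest with 567 ± 91.7 CPM per kb (SD, n = 12), above 99.8% of the genes tested, followed by *Col6a1* (338 ± 81.8) and *Col5a2* (181 ± 75.9). The lowest was *Col5a1* with 17.4 ± 3.78 CPM per kb. All neighbours in this order overlapped in their ranges at day 0. At day 2 *Col6a1* led with 723 ± 209 CPM per kb and its lowest library lay above the highest of *Col6a3* (164 ± 78.8), which was next. *Col1a1* (1.37 ± 1.08) and *Col1a2* (1.21 ± 1.13) were then the lowest of the 10, at ranks 10704 and 11007 of the genes tested. At day 6 *Col6a1* still led with 558 ± 232 CPM per kb, again without overlap with the next gene, *Col5a2* (95.3 ± 36.8), and the collagen I chains were again lowest, with ranges that overlapped each other.

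**Figure D1:**
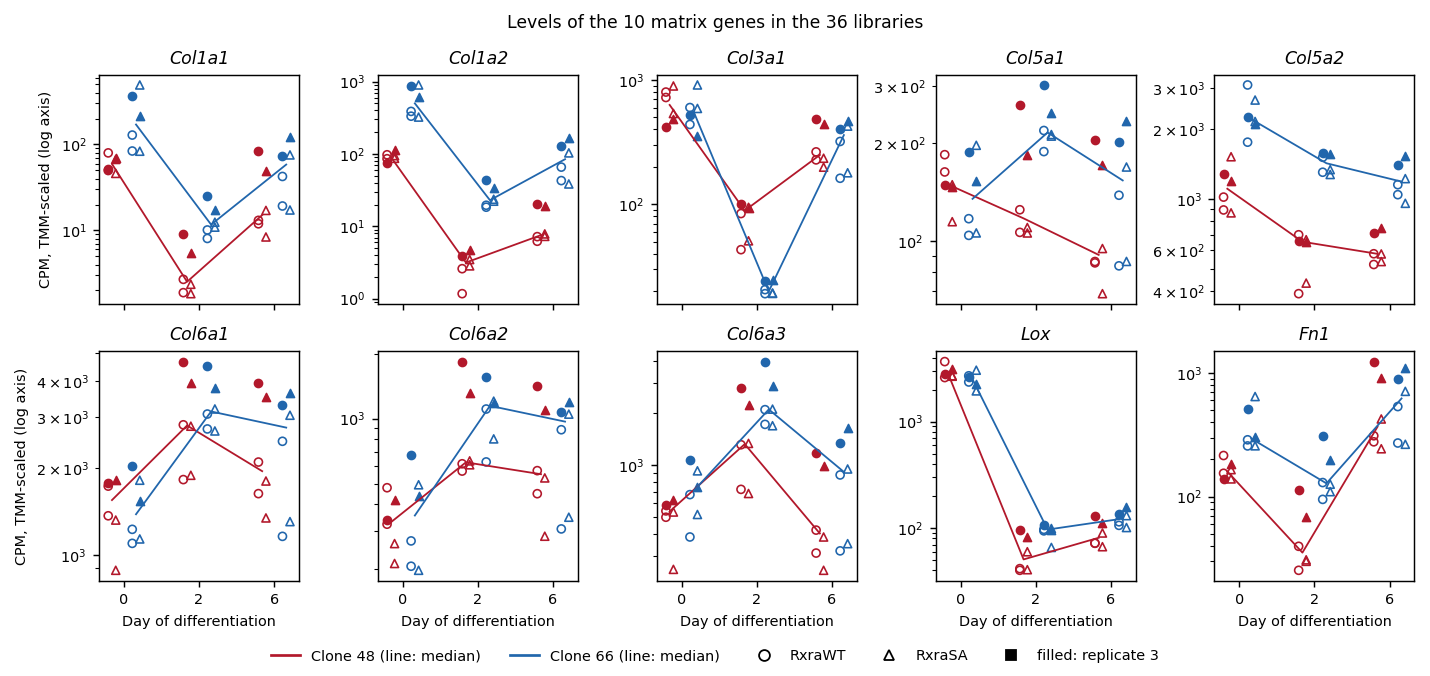
Level of each of the 10 genes (CPM scaled by TMM, log axis) against day of differentiation, 1 point per library, clone 48 in red and clone 66 in blue, circles for *Rxra*WT and triangles for *Rxra*SA, filled for replicate 3, with lines through the median of the 6 libraries of a clone. The day 0 and day 2 ranges of *Col1a1*, *Col1a2*, *Col3a1* and *Lox* do not overlap, and the clones lie apart on every day for *Col1a2* and *Col5a2*.

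From day 0 to day 2, 6 of the 10 genes fell and 3 rose, against 37.5% and 35.8% of the genes tested that were called lower and higher. From day 2 to day 6, 5 rose and 2 fell, against 31.9% and 30.1% of genes tested. Over the whole course, day 6 against day 0, 3 were higher and 5 lower, against 32.9% and 35.4%. The median log2 fold change of the 10 genes was −1.13, 0.21 and −0.53 in the 3 comparisons, beside −0.02, 0.01 and −0.03 for all genes tested. Scaling by library size alone moved the median of all genes to −0.27, 0.08 and −0.22 and the genes called higher and lower to 4195 and 8256 (day 2 against day 0) and 4160 and 7751 (day 6 against day 0), beside 5989 and 6270 and 5505 and 5918 with TMM. No called direction among the 10 genes changed with it. Ranges of the 12 libraries per day did not overlap for 4 genes between days 0 and 2, 1 between days 2 and 6 and 1 between days 0 and 6, which was so for 27.7%, 17.1% and 23.2% of genes tested.

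**Figure D2:**
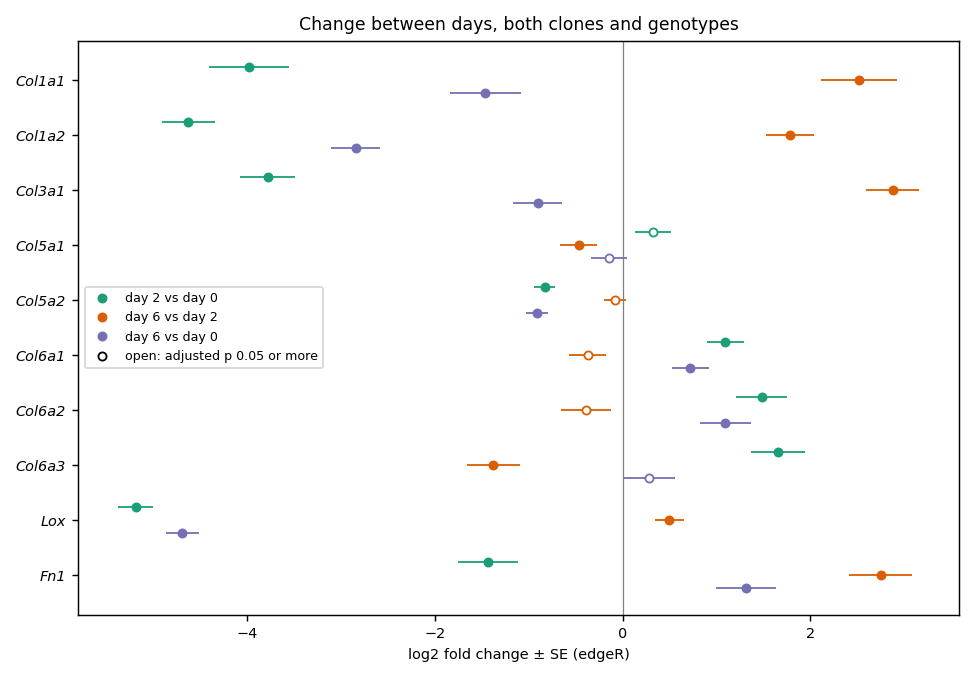
Log2 fold change of each gene between days (horizontal axis, bars show SE of the edgeR fit, 12 libraries per day), with open points for an adjusted p of 0.05 or more. At day 2 the 3 collagen VI chains lie right of 0, *Lox*, collagens I and III and *Fn1* left of it, and *Fn1* is higher at day 6 than on either earlier day.

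The chains of collagens I and III dropped steeply by day 2 and recovered in part by day 6. *Col1a1*, the main chain of collagen I, was measured at 46.0, 59.3 and 79.8 CPM (lowest, median and highest of 6 libraries) in clone 48 at day 0, at 1.83, 2.52 and 9.04 CPM at day 2 and at 8.38, 15.1 and 83.7 CPM at day 6. In clone 66 it was 83.4, 171 and 493 CPM at day 0, then 8.05, 11.7 and 25.4 CPM, then 17.3, 58.4 and 121 CPM. Days 0 and 2 did not overlap, whereas day 6 overlapped with both. The log2 fold change was −3.98 ± 0.42 from day 0 to day 2 (adjusted p = 2.76e-10), 2.52 ± 0.41 from day 2 to day 6 (adjusted p = 1.91e-06) and −1.46 ± 0.38 over the whole course (adjusted p = 0.00103). The last value was −1.02 ± 0.55 within clone 48 (adjusted p = 0.113) and −1.99 ± 0.56 within clone 66 (adjusted p = 0.003), and it was −2.09 without replicate 3 of clone 48 and −2.29 without that of both clones.

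*Col1a2*, the second chain of collagen I, went from 75.9, 91.1 and 114 CPM at day 0 in clone 48 to 1.17, 3.16 and 4.74 CPM at day 2 and 6.22, 7.56 and 20.1 CPM at day 6. In clone 66 it went from 324, 501 and 900.1 CPM to 18.4, 23.0 and 43.3 CPM and then 38.5, 84.7 and 165 CPM. Within each clone the 3 days did not overlap, apart from days 2 and 6 in clone 66. The log2 fold change was −4.63 ± 0.28 (adjusted p = 1.88e-16), 1.78 ± 0.26 (adjusted p = 2.79e-07) and −2.84 ± 0.26 (adjusted p = 6.37e-12) in the same order of comparisons.

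*Col3a1* encodes the single chain of collagen III, which shares fibrils with collagen I. Its level in clone 48 was 419, 630.1 and 894 CPM at day 0, 43.2, 89.1 and 100.4 CPM at day 2 and 199, 249 and 483 CPM at day 6. In clone 66 it was 352, 555 and 912 CPM, then 19.1, 19.99 and 24.7 CPM, then 162, 360.5 and 467 CPM. Day 2 was the low point in every culture and overlapped with neither other day. The log2 fold change was −3.78 ± 0.29 to day 2 (adjusted p = 1.08e-13), 2.87 ± 0.28 from day 2 to day 6 (adjusted p = 9.03e-11) and −0.91 ± 0.26 over the whole course (adjusted p = 0.00265).

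The collagen V chains, which regulate the width of fibrils, moved far less by day 2. *Col5a2*, a neighbour of *Col3a1* on the opposite strand of chromosome 1, had medians of 1105, 652 and 578 CPM at days 0, 2 and 6 in clone 48 and of 2206, 1424 and 1186 CPM in clone 66. It fell by 0.83 ± 0.11 on the log2 scale to day 2 (adjusted p = 7.01e-08) and differed by −0.08 ± 0.11 between days 2 and 6 (adjusted p = 0.562). Over the whole course its log2 fold change was −0.91 (edgeR, adjusted p = 1.27e-08), as large as that of *Col3a1* (−0.91). *Col5a1* had medians of 149, 117 and 90.6 CPM in clone 48 and 135, 216 and 154 CPM in clone 66. Only its value for day 6 against day 2 passed the threshold (−0.47 ± 0.20, adjusted p = 0.0371), and this call was lost under 5 of 17 alternatives, among them leaving out replicate 2 of clone 48 or replicate 1 or 2 of clone 66 (adjusted p from 0.0563 to 0.122). Its value for day 2 against day 0 was 0.32 ± 0.20 (adjusted p = 0.138), and 0.48 without replicate 1 of clone 48 (adjusted p = 0.0355). Day 6 against day 0 gave −0.15 ± 0.20 (adjusted p = 0.52), and −0.52 without replicate 3 of both clones (adjusted p = 0.0248). *Col5a1* exons overlap 2 antisense transcripts that had at most 121 counts per library, and strand was not used in counting.

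The 3 chains of collagen VI, which combine into 1 molecule, rose together by day 2. *Col6a1* was at 886, 1551 and 1827 CPM (lowest, median and highest) at day 0 in clone 48, at 1826, 2810.2 and 4676 CPM at day 2 and at 1345, 1953 and 3945 CPM at day 6. In clone 66 it was at 1099, 1385 and 2032 CPM, at 2690.1, 3142 and 4522 CPM and at 1162, 2764 and 3633 CPM. Days 0 and 2 were separate in clone 66 and touched in clone 48, and day 6 overlapped with both. The change to day 2 was 1.09 ± 0.20 (adjusted p = 1.02e-05), that from day 2 to day 6 was −0.37 ± 0.20 (adjusted p = 0.103), and day 6 remained above day 0 by 0.72 ± 0.20 (adjusted p = 0.00181).

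*Col6a2*, which lies next to *Col6a1* on chromosome 10, had medians of 331, 627 and 552 CPM in clone 48 and 355, 1146 and 968 CPM in clone 66 at days 0, 2 and 6. The 12 libraries ranged from 198 to 676 CPM at day 0, from 571 to 1836 at day 2 and from 285 to 1410 at day 6. It rose by 1.48 ± 0.27 to day 2 (adjusted p = 1.05e-05), differed by −0.39 ± 0.27 between days 2 and 6 (adjusted p = 0.211) and stood 1.09 ± 0.27 above day 0 at day 6 (adjusted p = 0.000572). The decrease from day 2 to day 6 was called for *Col6a1* and *Col6a2* (−0.43 and −0.47, adjusted p of 0.00297 and 0.00543) in the fit with clone and replicate number as a block, which called all 3 chains and 4 of the 10 genes lower in place of 2. Without replicate 3 of both clones it was called for *Col6a1* (−0.47, adjusted p = 0.0426).

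*Col6a3*, the longest chain and the precursor of the endotrophin fragment, was called lower at day 6 than at day 2. It had medians of 539, 1324 and 402 CPM in clone 48 and 710.0, 2102 and 914 CPM in clone 66. The whole ranges were 249 to 1064 CPM at day 0, 685 to 3973 CPM at day 2 and 246 to 1635 CPM at day 6. It rose by 1.66 ± 0.29 (adjusted p = 4.1e-06), fell by 1.38 ± 0.28 (adjusted p = 7.81e-05) and differed by 0.28 ± 0.28 between days 6 and 0 (adjusted p = 0.385). Without replicate 3 of both clones this last value was −0.21 (adjusted p = 0.469).

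*Lox* showed the largest change of the 10 genes between day 0 and either later day. In clone 48 it was at 2592, 2761 and 3661 CPM at day 0, at 40.2, 50.8 and 95.7 CPM at day 2 and at 66.9, 81.1 and 130.3 CPM at day 6. In clone 66 it was at 1944, 2502 and 3040 CPM, at 65.8, 96.9 and 107 CPM and at 101, 123 and 158 CPM. Every library of day 0 exceeded every library of days 2 and 6. *Lox* dropped by 5.18 ± 0.18 on the log2 scale to day 2 (adjusted p = 4.64e-23), a 36.4-fold decrease, and rose by 0.50 ± 0.15 from day 2 to day 6 (adjusted p = 0.00591), which left it 4.69 ± 0.18 below day 0 (adjusted p = 3.57e-22). An antisense transcript that shares exonic bases with *Lox* had at most 342 counts per library.

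*Fn1* fell and then overshot. In clone 48 it was at 139, 160 and 215 CPM at day 0, at 25.3, 35.2 and 112 CPM at day 2 and at 244, 367 and 1235 CPM at day 6. In clone 66 it was at 257, 294 and 644 CPM, at 94.9, 128 and 311 CPM and at 265, 622 and 1087 CPM. At day 6 both libraries of replicate 3 were the highest of their clone, at 909 and 1235 CPM in clone 48 and at 895 and 1087 CPM in clone 66. The log2 fold change was −1.43 ± 0.32 to day 2 (adjusted p = 0.000157), 2.75 ± 0.34 from day 2 to day 6 (adjusted p = 1.12e-08) and 1.31 ± 0.32 over the whole course (adjusted p = 0.000514). The last value was 1.77 ± 0.44 within clone 48 (adjusted p = 0.00116), 0.73 ± 0.43 within clone 66 (adjusted p = 0.15) and 0.64 without replicate 3 of both clones (adjusted p = 0.0357). *Fn1* exons overlap the antisense gene *Apol7d*, which had at most 52 counts per library.

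Chains of 1 collagen did not keep a fixed ratio. Ratios were taken on CPM per kb, averaged over the *Rxra*WT and *Rxra*SA library of a clone, day and replicate number, and compared between days by an exact two-sided permutation test with days exchanged within clones, in which the smallest possible p is 0.005 (6 ratios, 18 tests, Benjamini-Hochberg adjusted). The test did not pair replicate numbers across days, although same-numbered cultures tended to deviate together between days (mean correlation 0.465). *Col1a1* to *Col1a2* had geometric means of 0.897, 1.43 and 2.11 at days 0, 2 and 6, a rise of 1.23 on the log2 scale between days 0 and 6 (exact permutation p = 0.01, adjusted p = 0.0257). Within clone 48 it was 1.23, 2.11 and 4.03, and within clone 66 it was 0.656, 0.964 and 1.10. Most collagen I molecules hold a pair of *Col1a1* chains for each *Col1a2* chain, which RNA ratios do not measure. The size of an RNA ratio also depends on the annotated exon lengths, 6563 bases for *Col1a1* and 12426 for *Col1a2*. These lengths were the same on every day, so they do not enter the changes between days. *Col5a1* to *Col5a2* rose from 0.102 to 0.224 between days 0 and 2 (exact permutation p = 0.01, adjusted p = 0.0257). *Col6a3* to *Col6a1* went from 0.146 to 0.21 and then to 0.101, and all 3 pairs of days differed (exact permutation p of 0.005 to 0.01, adjusted p = 0.0257 each).

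*Col6a1* to *Col6a2* had geometric means of 8.16, 6.22 and 6.39 on the 3 days, and none of its 3 differences passed after adjustment (exact permutation, adjusted p of 0.081 to 0.82). *Fn1* to *Col1a1* rose from 1.30 at day 0 to 7.01 at day 2 and 9.05 at day 6, with log2 differences from day 0 of 2.43 and 2.80 (exact permutation p = 0.005, adjusted p = 0.0257 each). *Col3a1* to *Col1a1* was 3.74, 4.09 and 6.33 and spread from −0.37 to 5.01 on the log2 scale at day 2, with no difference between days past the threshold. Leaving out any replicate number of either clone kept the sign of every ratio difference that was called, at adjusted p of 0.05 to 0.0857. Fewer assignments of days then remain, so the smallest possible p is above 0.005. These tests therefore cannot decide whether a call depended on 1 replicate number.

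**Figure D3:**
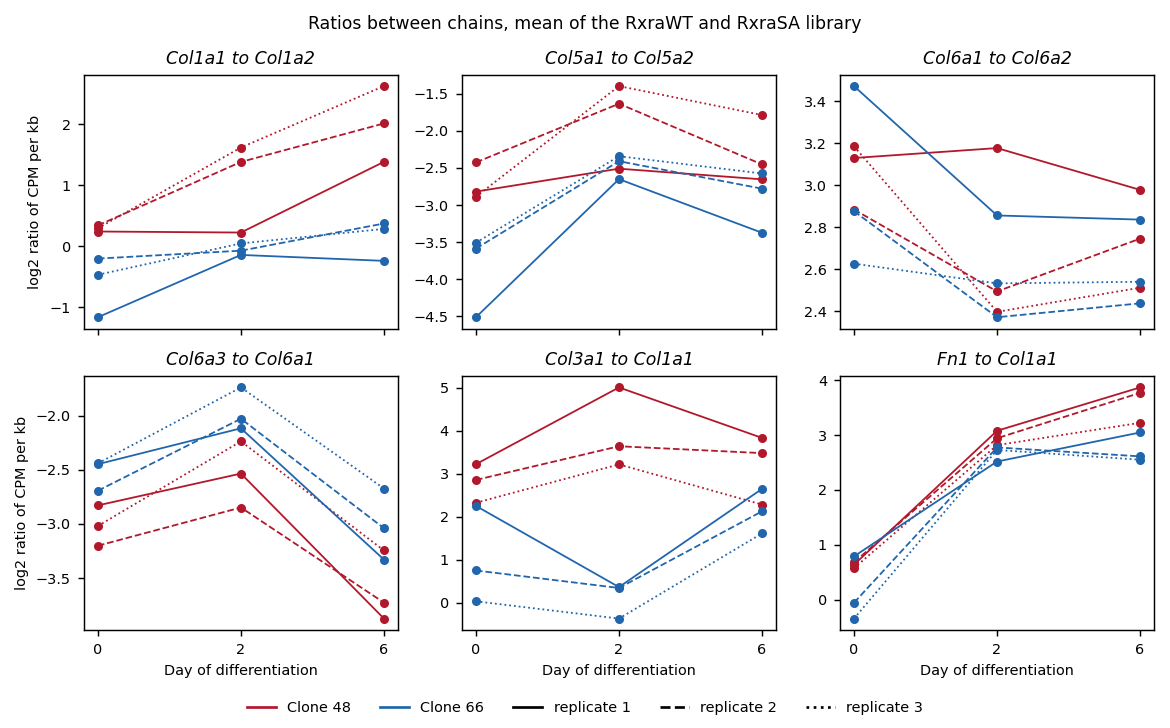
Log2 ratio of CPM per kb for 6 pairs of genes (vertical axis) against day of differentiation, 1 line per clone and replicate number, red for clone 48 and blue for clone 66. *Fn1* to *Col1a1* rises from day 0 to day 2 in all 6 lines, *Col6a3* to *Col6a1* is lowest at day 6 in all 6, and *Col3a1* to *Col1a1* peaks at day 2 in clone 48 and dips there in clone 66.

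The clones differed in the collagen I chains, *Col5a2*, *Fn1* and, at day 2, *Col3a1* and *Lox*, while no collagen VI chain was called with all libraries. At day 0, 4 genes were higher and 0 lower in clone 66 than in clone 48, against 12.6% and 11.1% of genes tested. At day 2, 5 were higher and 1 lower, against 14.5% and 15.5%, and at day 6, 2 were higher and 0 lower, against 13.4% and 12.8%. DESeq2 and an unadjusted edgeR p under 0.05 also gave 0 lower genes at days 0 and 6. *Col1a2* was higher in clone 66 by 2.62 ± 0.38 at day 0 (adjusted p = 3.77e-06), by 3.12 ± 0.42 at day 2 (adjusted p = 9.48e-07) and by 3.00 ± 0.39 at day 6 (adjusted p = 8.06e-07), with no overlap between the clones on any day. *Col5a2* was higher by 1.05 ± 0.17, 1.29 ± 0.17 and 0.99 ± 0.17 (adjusted p of 4.73e-05 or less), also without overlap. Ranges of the clones did not overlap for 4, 3 and 2 of the 10 genes at days 0, 2 and 6, which was so for 13.7%, 18.6% and 15.2% of genes tested. *Col1a1* was higher by 1.89 ± 0.55 at day 0 (adjusted p = 0.0122) and 1.87 ± 0.60 at day 2 (adjusted p = 0.0186), and its difference at day 6 was 0.93 ± 0.55 (adjusted p = 0.231).

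Several of these calls rested on single replicate numbers. That of *Col1a1* at day 0 was lost without replicate 2 of clone 48 or replicate 2 or 3 of clone 66 (adjusted p of 0.0555 to 0.0961), and at day 2 without replicate 1 or 2 of clone 48 or replicate 3 of clone 66 (adjusted p of 0.0893 to 0.111), while it was 2.702 at day 2 without replicate 3 of clone 48. At day 6 *Col1a1* passed without replicate 3 of both clones (1.58, adjusted p = 0.0265) or of clone 48 alone (2.18, adjusted p = 0.00493). *Fn1* was higher in clone 66 by 1.67 ± 0.45 at day 2 (adjusted p = 0.00461), which was lost without replicate 2 of clone 48 or replicate 3 of clone 66 (1.46 and 1.19, adjusted p of 0.0558 and 0.0614) and was 2.38 without replicate 3 of clone 48. At day 0 it was higher by 1.18 ± 0.44, and its adjusted p of 0.0498 rose above 0.05 under 10 of 15 alternatives, among them leaving out replicate 1 or 2 of clone 48 or replicate 2 or 3 of clone 66 (adjusted p of 0.107 to 0.235). *Lox* was higher at day 2 by 0.63 ± 0.20 (adjusted p = 0.0183), which was lost without replicate 1 or 2 of clone 48 or replicate 1 or 3 of clone 66 (adjusted p of 0.0572 to 0.194). At day 6 *Lox* passed without replicate 3 of clone 48 (0.73, adjusted p = 0.00145), and the *Col1a2* difference was then 3.67. When same-numbered libraries of both genotypes were summed, 2 genes remained higher in clone 66 at day 0 and 2 at day 2. The log2 differences of the collagen VI chains lay between −0.00 and 0.67 with SE of 0.30 to 0.43 (adjusted p of 0.255 or more). Without replicate 3 of clone 48, *Col6a3* was called higher in clone 66 at day 2 (1.27, adjusted p = 0.0243) and day 6 (1.43, adjusted p = 0.0128), as was *Col5a1* (1.06 and 0.86, adjusted p of 0.00304 and 0.0136), which made 7 genes higher at day 2 and 6 at day 6. Adipocyte markers summed to 9727–12510 CPM in clone 66 at day 6 and 12362–15110 CPM in clone 48, and fibroblast markers to 64.2–168 and 42.0–110 CPM. The part of these differences in the matrix genes was not tested.

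*Col3a1* was the exception among the fibrillar chains, being lower in clone 66 at day 2 by 1.88 ± 0.30 (adjusted p = 1.27e-05), with no overlap, and alike at day 0 (−0.18 ± 0.28, adjusted p = 0.706) and day 6 (0.07 ± 0.28, adjusted p = 0.89) within the spread of the cultures. Within clone 48 it dropped by 3.05 ± 0.31 to day 2 and rose by 1.99 ± 0.29 to day 6, whereas within clone 66 it dropped by 4.74 ± 0.33 and rose by 3.94 ± 0.32. The difference between the clones in these changes was −1.69 ± 0.41 for day 2 against day 0 (adjusted p = 0.00769) and 1.95 ± 0.41 for day 6 against day 2 (adjusted p = 0.00233). The former was lost without replicate 3 of clone 48 (−1.26, adjusted p = 0.0707), replicate 2 of clone 66 (−1.48, adjusted p = 0.0894) or replicate 3 of both clones (−1.52, adjusted p = 0.0573). Both were lost when same-numbered libraries of the genotypes, which deviated together, were summed (−1.72 and 1.96, adjusted p of 0.109 and 0.0672). With all libraries kept separate, *Col3a1* was the only 1 of the 10 genes called in either comparison in this fit, against 6.84% and 6.18% of genes tested. For day 6 against day 0 none was called, against 3.85%. In that last comparison edgeR gave 1 of the 10 genes and 2324 of all genes an unadjusted p under 0.05, and DESeq2 called 0 of the 10. Without replicate 3 of clone 48, *Lox* was called for day 2 against day 0 (1.29, adjusted p = 0.000659) and for day 6 against day 0 (0.96, adjusted p = 0.0123). Without replicate 3 of both clones it was called for day 2 against day 0 (1.20, adjusted p = 0.0104). With replicate number as a block, 3 genes were called for day 2 against day 0, 2 for day 6 against day 2 and 1 for day 6 against day 0. They were *Col3a1* (−1.64 and 1.89 in the first pair of comparisons), *Lox* (0.95 for day 2 and 0.74 for day 6 against day 0), *Col5a1* (0.83 for day 2 against day 0) and *Fn1* (−1.54 for day 6 against day 2), with adjusted p of 0.0326 or less.

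**Figure D4:**
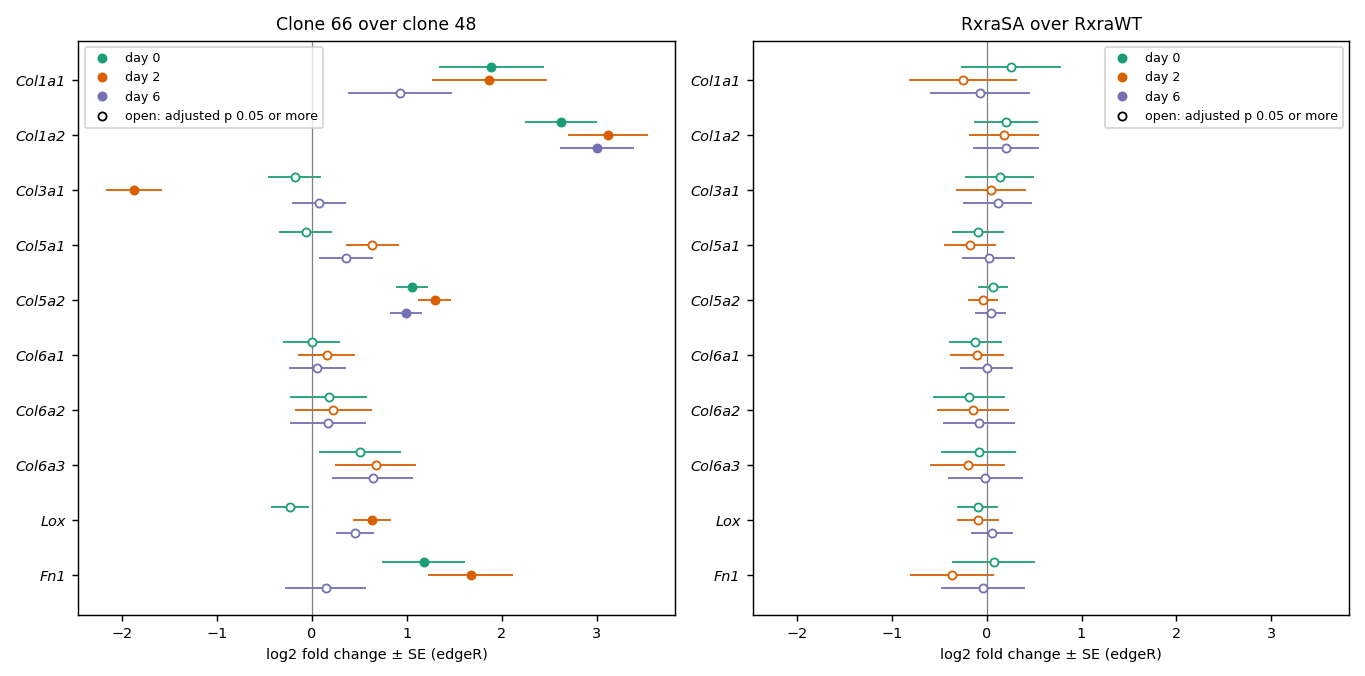
Log2 fold change of clone 66 over clone 48 (left, 6 libraries per clone and day) and of *Rxra*SA over *Rxra*WT (right, 6 libraries per genotype and day) for each gene and day on the same axis, bars show SE of the edgeR fit and open points an adjusted p of 0.05 or more. Filled points occur only on the left, with *Col1a2* furthest right and *Col3a1* at day 2 furthest left.

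The study compared *Rxra*SA with *Rxra*WT to ask what phosphorylation of serine 22 does in adipogenesis. None of the 10 genes differed between the genotypes on any day in edgeR, as was so for all genes tested (0% called on days 0, 2 and 6), and DESeq2 called none of the 10 either. With replicate number as a block within each day, 1 of all genes, none of the 10, was called at day 2. At an unadjusted p under 0.05 there were 0 of the 10 genes on each day, beside 139, 162 and 125 of all genes. The largest log2 differences were 0.26 ± 0.52 for *Col1a1* at day 0, −0.36 ± 0.44 for *Fn1* at day 2 and 0.21 ± 0.35 for *Col1a2* at day 6. The interval of 2 SE on either side was narrowest for *Col5a2*, from −0.28 to 0.36 at day 6, and from −1.13 to 0.99 for *Col1a1* on the same day. Same-numbered libraries of the genotypes deviated together, and the fit that compared them within pairs gave narrower intervals, from −0.44 to 0.66 for *Col1a1* at day 6. In that fit the intervals of the 10 genes reached from −0.52 to 0.71, from −0.81 to 0.63 and from −0.44 to 0.66 on the 3 days in turn, all within a 2-fold difference, and 0 of the 10 genes had an unadjusted p under 0.05. *Lox* was at 2621 ± 447 CPM in *Rxra*SA and 2797 ± 451 CPM in *Rxra*WT at day 0 (SD, n = 6), and *Col6a1* at 2446 ± 1085 and 2439 ± 1043 CPM at day 6.

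No difference between genotypes in the changes over time was called either, with 0 of the 10 genes and 0% of genes tested called by edgeR for any pair of days (unadjusted p under 0.05 for 0 of the 10 and for 144, 153 and 128 of all genes) and 0 of the 10 by DESeq2. At day 6, *Rxra*SA libraries lay below their *Rxra*WT partner of the same number in 3 of 3 pairs of clone 48 and above it in 3 of 3 pairs of clone 66 for *Col3a1*, *Col6a1*, *Col6a2* and *Col6a3*. These genes were picked for this pattern, and its share among all genes was not counted. The mean log2 differences were −0.16 and 0.26 for *Col3a1*, −0.22 and 0.20 for *Col6a1*, −0.37 and 0.19 for *Col6a2* and −0.24 and 0.18 for *Col6a3* in clones 48 and 66. The test of the difference between the clones in the effect of genotype called none of the 10 genes and 0% of all on any day in edgeR (unadjusted p under 0.05 for 0 of the 10 and for 283, 214 and 200 of all genes) and none of the 10 in DESeq2, with a difference of 0.54 ± 0.81 for *Col6a2*.

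Other genes of collagen and fibronectin biology were described from 7 lists with 74 genes in all, for day 6 against day 0, where the median of all genes was −0.03. Among all genes tested, 32.9% were called higher and 35.4% lower in this comparison, beside which the counts of each list stand. Of 9 fibrillar and type VI collagens outside the 10 genes, 4 were tested and all 4 were higher (median 2.35), at low levels. *Col27a1*, a fibrillar collagen of cartilage, rose from 4.05 ± 1.25 to 22.5 ± 5.12 CPM (SD, n = 12), *Col5a3*, a further collagen V chain, from 0.751 ± 0.62 to 8.21 ± 5.96 CPM and *Col11a2* from 2.10 ± 1.04 to 8.90 ± 2.44 CPM. Of 10 fibril-associated collagens 5 were tested, of which 3 fell and 2 rose (median −3.21). *Col12a1*, which sits on the surface of collagen I fibrils, fell from 264 ± 60.6 to 15.2 ± 2.98 CPM and *Col16a1* from 130 ± 24.3 to 14.0 ± 4.80 CPM, and *Col22a1* had a log2 fold change of −5.71 ± 0.25. *Col20a1* (1.78 ± 0.12) and *Col9a3* (0.48 ± 0.21, adjusted p = 0.0414) rose, the latter under 1 CPM and no longer called under 8 of 16 alternatives, among them leaving out replicate 1 or 2 of clone 48 or replicate 2 or 3 of clone 66 (adjusted p of 0.0518 to 0.184).

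Among 17 hydroxylases, chaperones and glycosyltransferases of collagen, 16 were tested, with 10 lower, 5 higher and 1 not called (median −0.58). The 3 with the largest increase were hydroxylases or subunits of them, which make up most of this list. *Plod2*, a lysyl hydroxylase, rose from 122 ± 13.5 to 585 ± 70.7 CPM, and the prolyl 4-hydroxylase subunits *P4ha2* from 42.6 ± 17.9 to 183 ± 57.6 CPM and *P4ha1* from 179 ± 35.2 to 734 ± 181 CPM. In the opposite direction went *P4ha3* (−5.01 ± 0.22), the prolyl 3-hydroxylase *P3h2* (−3.61 ± 0.18) and the chaperone *Fkbp10* (−1.65 ± 0.17). The procollagen trimming and secretion list had 6 of 7 tested genes lower and none higher out of 10 (median −1.72). *Adamts14* and *Adamts2*, which cut the amino-terminal propeptide, had log2 fold changes of −3.38 ± 0.20 and −2.50 ± 0.20, and *Pcolce*, an enhancer of the carboxy-terminal protease, went from 638 ± 80.3 to 93.9 ± 25.4 CPM.

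All 4 relatives of *Lox* were tested, and 3 fell. *Loxl3* went from 110 ± 23.5 to 13.3 ± 4.23 CPM, *Loxl1* from 75.1 ± 13.1 to 26.7 ± 7.90 CPM and *Loxl4* from 94.8 ± 32.7 to 39.9 ± 9.85 CPM, whereas *Loxl2* rose from 0.666 ± 0.341 to 1.14 ± 0.255 CPM. Of 12 receptors for fibronectin and collagen 11 were tested, with 8 lower, none higher and 3 not called (median −0.79). The decrease was −3.80 ± 0.24 for *Antxr1*, a receptor for collagens, and −3.36 ± 0.17 for the integrin subunit *Itgb3*, and the collagen-binding kinase *Ddr2* went from 431 ± 54.9 to 133 ± 44.3 CPM. Of 12 elastic fibre and matricellular genes 11 were tested, with 7 lower and 2 higher (median −2.84). The matricellular genes *Tnc* (−4.90 ± 0.26), *Ccn2* (−3.78 ± 0.24) and *Thbs1* (−3.63 ± 0.35) led the decrease, and *Thbs1* went from 808 ± 281 to 81.2 ± 60.7 CPM. *Fbln1* (2.34 ± 0.33, under 1 CPM) and *Eln* (1.39 ± 0.43, adjusted p = 0.00445) rose, and *Eln*, which encodes elastin, a substrate of LOX, was no longer called without replicate 3 of clone 66 (0.99, adjusted p = 0.061) or of both clones (0.47, adjusted p = 0.427).

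The genes with the most similar time course were sought over the 12 means of clone, genotype and day among 6418 genes (average log2 CPM 5 or more), as a description, since these means share libraries. *Loxl4* came first for *Col1a1* (Pearson r = 0.99), followed by *Flii*, *Ampd2*, *Sec24d* and *Tpp1* (r = 0.98 each). *Sec24d* encodes a coat protein of the vesicles that leave the endoplasmic reticulum. For *Col6a1* the order was *Fgfr1*, *Col6a2* and *Col4a1* (r = 0.99 each), *Syngr2* and *Tbl1x* (0.99 each), and *Col4a1* encodes a chain of basement membrane collagen. For *Fn1* it was *Galm*, *Itpr2*, *Sardh*, *Galk1* and *Fads2*, with r between 0.96 and 0.98. Within the 10 genes, *Col1a1* was closest to *Col1a2* (r = 0.95) and *Col6a1* to *Col6a2* (r = 0.99), while *Col6a1* and *Lox* had an r of −0.90.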

How the data were processed

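The authors sequenced rRNA-depleted, stranded libraries in paired-end mode, aligned reads to GRCm38 with STAR 2.7.0d and counted read pairs on exons of GENCODE M21 genes with featureCounts 1.6.2 without using strand. The deposited values are raw counts per gene, neither normalized nor filtered. Groups, replicate numbers and days came from the sample labels. The 10 genes, the gene lists and the tests were chosen with earlier results of these data known.

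Counts were filtered with filterByExpr, scaled by TMM and tested across all genes with the earlier form of edgeR's quasi-likelihood test (edgeR 4.0.16, R 4.3.3), in a model of genotype-by-day groups plus a clone effect, the design of the study's methods. Comparisons involving clones used a term for each clone, genotype and day. Genes with a Benjamini-Hochberg adjusted p under 0.05 were called. The fits were tested on simulated counts. DESeq2 1.42.0, limma 3.58.1, python 3.11.15, pandas 2.3.3, numpy 2.4.6 and matplotlib 3.10.9 were also used.

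From the other lists, up to 3 rising and 3 falling genes that passed for day 6 against day 0 were named. Same-numbered *Rxra*WT and *Rxra*SA libraries of a clone and day deviated together (correlation over 0.1 in 18 of 18 pairs, mean 0.71), so numbers pair the genotypes. Across days this held for 6 of 6 pairs between days 0 and 2, and for 5 of 6 in each other comparison (lowest 0.0621 and 0.099, mean of all 18 pairs 0.465), so fits with replicate number as a block are given where they change a call. No 2 replicates were duplicates (chi-square per degree of freedom of 13.5 or more). Total counts limit precision through counting error only for *Col1a1* and *Col1a2* at day 2, which had as few as 29 and 17 counts.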

Additional observations from a re-analysis of the deposited data

Results flagged for a closer look

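*Col3a1*, the chain of collagen III, was singled out because the change between days differed between the clones by the test of the difference itself. The difference (clone 66 minus clone 48) was −1.69 on the log2 scale for day 2 against day 0 and 1.95 for day 6 against day 2. Neither was called when same-numbered libraries of the genotypes were summed (edgeR, adjusted p of 0.109 and 0.0672). Clone 66 was sequenced in a pool of its own, and clone and pool cannot be told apart. Groups of 3 libraries are too small for the search for single outlying samples, which was not made.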

How the results depend on the processing

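Of the 24 calls between days, all were kept in direction and significance under 12 of 17 alternatives, and 23 under the other 5. The call lost was that of *Col5a1* for day 6 against day 2, so that 1 gene was lower with library size alone and with same-numbered libraries summed, and 1 to 2 with a replicate number of a clone left out. The replicate block (clone and replicate number) gave 4 genes lower for that comparison and changed no other day or genotype call among the 10 genes. For clone by time it gave 3, 2 and 1 genes for day 2 against day 0, day 6 against day 2 and day 6 against day 0. DESeq2 gave 2 for the first, no filter gave 2 for each of the first pair, and summed libraries gave 0 for both. With a replicate number left out the first and last counts ranged from 0 to 1. *Col3a1* was lost for day 2 against day 0 without replicate 3 of clone 48, replicate 2 of clone 66 or replicate 3 of both (−1.26, −1.48 and −1.52, adjusted p of 0.0707, 0.0894 and 0.0573). Without replicate 3 of clone 48 or of both, *Lox* was called there instead (1.29 and 1.20, adjusted p of 0.000659 and 0.0104). Genes higher in clone 66 numbered 2 to 4 at day 0, 2 to 7 at day 2 and 2 to 6 at day 6 with a replicate number left out, 2 at days 0 and 2 with summed libraries, and 4 at day 6 without replicate 3 of both clones. Summed libraries and the omission of replicate 3 of both clones were chosen after seeing the data, and leave fewer libraries. For clone by genotype at day 0, no filter called 5 of all genes and the replicate block 3, none of them among the 10.

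Signs turned only where nothing was called. With a replicate number left out, *Col5a1* for day 6 against day 0 ranged from −0.32 to 0.0067, and the clone 66 against clone 48 difference from −0.40 to 0.019 for *Col3a1* at day 0, from −0.19 to 0.49 for *Col3a1* at day 6 and from −0.35 to 1.00 for *Fn1* at day 6. *Col6a3* for day 6 against day 0 was −0.21 without replicate 3 of both clones. Counts plus 1 per length put *Col1a1* to *Col1a2* for day 2 against day 0 past the threshold (0.67, adjusted p = 0.045).

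With a replicate number left out the ratio differences ranged from 1.01 to 1.36 for *Col1a1* to *Col1a2* (day 6 against day 0), 0.99 to 1.30 for *Col5a1* to *Col5a2* (day 2 against day 0), 0.47 to 0.57, −1.10 to −1.01 and −0.61 to −0.44 for *Col6a3* to *Col6a1* (day 2 against day 0, day 6 against day 2, day 6 against day 0) and 2.30 to 2.57 and 2.71 to 2.91 for *Fn1* to *Col1a1* (days 2 and 6 against day 0). None of these passed the threshold, with fewer assignments of days left in each test and so a higher smallest possible p. The differences ranged from −0.0060 to 0.084 for *Col6a1* to *Col6a2* (day 6 against day 2) and from −0.20 to 0.53 for *Col3a1* to *Col1a1* (day 2 against day 0).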
